A study of Homo sapiens with 12 samples.

Results

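The FASTK family comprises nuclear genes whose proteins act on RNA inside mitochondria. Its 6 genes FASTK, FASTKD1, FASTKD2, FASTKD3, FASTKD5 and TBRG4 (also called FASTKD4) were taken by symbol from the 60609 genes listed in the count files, after the version had been dropped from each Ensembl identifier. Their transcripts were compared between treated and control K562 cells, beside the 13 mRNAs of the mitochondrial genome. K562 is a human leukemia cell line. The cells received either the solvent DMSO or FT671, an inhibitor of the deubiquitinating enzyme USP7, at 10 μM for 48 h. Each group held 3 RNA-seq libraries, made from total RNA after depletion of rRNA. The study described 3 independent experiments, the labels give replicate numbers only, and the p-values measure the spread between these libraries. FT671 acts on the USP7 protein, so a transcript level is no check of the treatment.

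The mitochondrial genome is transcribed from both strands into long precursors in which most mRNAs and rRNAs are separated by tRNAs. Excision of the tRNAs by RNase P at their 5′ ends and by ELAC2 at their 3′ ends releases most of the mRNAs, but some mRNA ends are not marked by a tRNA. FASTK proteins share a RAP domain, bind RNA in the mitochondrial matrix and are known for the processing, stability and translation of particular mitochondrial mRNAs. FASTKD5 is required for the maturation of mRNAs whose ends carry no tRNA, and TBRG4 for the stability of several mRNAs.

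To show what such ends look like, the 30 bases before and the first 30 bases of 6 mitochondrial genes are given (hg38, plus strand, gene starts of GENCODE 44). Capitals mark the gene from its annotated start. These mRNAs were chosen because they hold the extremes of the response to FT671 described further on, with MT-CO2 as an mRNA of moderate change.
MT-CO1, chrM:5874-5933: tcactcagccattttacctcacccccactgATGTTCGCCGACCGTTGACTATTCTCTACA
MT-CO3, chrM:9177-9236: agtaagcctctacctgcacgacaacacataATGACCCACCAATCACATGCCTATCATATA
MT-CYB, chrM:14717-14776: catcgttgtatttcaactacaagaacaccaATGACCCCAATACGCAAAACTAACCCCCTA
MT-ND2, chrM:4440-4499: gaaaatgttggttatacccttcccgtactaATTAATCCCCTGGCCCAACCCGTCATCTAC
MT-ND3, chrM:10029-10088: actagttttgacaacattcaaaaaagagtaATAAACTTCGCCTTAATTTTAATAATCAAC
MT-CO2, chrM:7556-7615: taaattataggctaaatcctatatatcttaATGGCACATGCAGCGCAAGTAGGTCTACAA
Each stretch in capitals opens with ATG, ATT or ATA, which are start codons of the mitochondrial code. In MT-ND2, MT-ND3 and MT-CO2 the lower-case bases are the end of a tRNA on the same strand (MT-TM, MT-TG and MT-TD), with a gap of 0 bases. In MT-CO3 they are the end of MT-ATP6, whose last base is also the first base of MT-CO3. MT-CYB follows MT-TE, a tRNA of the other strand, after a gap of 4 bases. Before MT-CO1 no gene was annotated within 5 bases.

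Total counts per library ranged from 4555220 to 14250500, and 13895 genes passed the filter on low counts, including all 6 family genes. Levels are given in CPM, which are counts scaled to a common library size after TMM normalization. A count of 3, taken as the limit of detection, was worth between 0.207 and 0.664 CPM, and such limits cover counting error only. All 8 erythroleukemia markers of K562 cells lay above this limit in every library, with a summed level of 1249 to 1287 CPM after DMSO and 1116 to 1152 CPM after FT671. Of 7 markers of other cell types, 2 lay above the limit in every library, MS4A1 and KRT5 were at 0, and the sum did not exceed 5.31 CPM.

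After FT671 the log2 fold changes of the family genes lay between -0.22 and 0.43. By edgeR's quasi-likelihood test, TBRG4 and FASTKD2 rose by small amounts, and no family gene passed as lower. With the Benjamini-Hochberg adjusted p-value under 0.05, 2 of 6 genes were higher, beside 23.6% of all genes tested, and 0 of 6 were lower, beside 26.5%. At the study's stricter threshold of 1e-05, none of the 6 was called, beside 1.79% of all genes higher and 4.13% lower. At an unadjusted p under 0.05 edgeR gave 2 higher and 0 lower, and DESeq2's Wald test called the same 2 genes at an adjusted p under 0.05 and none at 1e-05. The log2 fold changes had a median of 0.12 over the family and of -0.01 over all genes tested. In bulk RNA, fewer cells that express a gene and less RNA per cell cannot be told apart.

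TBRG4 (ENSG00000136270, chr7:45100100-45112047, minus strand, hg38) was the most abundant member. Its level was 134.0, 129.8 and 111.8 CPM in DMSO replicates 1, 2 and 3, and 169.4, 148.9 and 138.5 CPM in FT671 replicates 1, 2 and 3. Every FT671 library lay above every DMSO library, which held for 1 of 6 family genes and for 26.8% of all genes. Every FT671 library lay below every DMSO library in 0 of 6 family genes, beside 30.3% of all genes. The log2 fold change was 0.27 with a standard error of 0.0920 (95% interval 0.07 to 0.47, edgeR adjusted p = 0.0250). Its counts, between 607 and 1942 per library, were the highest of the family. The call was lost without FT671 replicate 1 (log2 fold change 0.19, edgeR adjusted p = 0.124) and without FT671 replicate 2 (0.29, edgeR adjusted p = 0.0579).

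FASTKD2 (ENSG00000118246, chr2:206765357-206796189, plus strand) encodes a protein that binds the large mitochondrial rRNA and is needed for assembly of the mitochondrial ribosome. Its level was 13.7, 11.8 and 17.3 CPM after DMSO and 16.8, 19.2 and 19.7 CPM after FT671. The groups overlapped, since DMSO replicate 3 lay above FT671 replicate 1. The log2 fold change was 0.43 with a standard error of 0.148 (95% interval 0.12 to 0.75, edgeR adjusted p = 0.0252). The call held under 13 of 17 alternatives. Without DMSO replicate 1, DMSO replicate 2, FT671 replicate 2 or FT671 replicate 3 the log2 fold change was 0.41, 0.32, 0.42 and 0.38, and edgeR's adjusted p was 0.0821, 0.116, 0.0704 and 0.117. Without DMSO replicate 3 it was 0.55, with an edgeR adjusted p of 0.000924.

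FASTKD3 (ENSG00000124279, chr5:7859159-7869037, minus strand), known for a role in the translation of the MT-CO1 mRNA, was the member with the fewest counts, 30 to 102 per library. It was measured at 6.01, 4.29 and 7.37 CPM after DMSO and at 6.64, 6.29 and 9.09 CPM after FT671, with overlapping groups. The log2 fold change of 0.42 was close to that of FASTKD2, but its standard error of 0.222 was larger and it did not pass the test (95% interval -0.06 to 0.90, edgeR adjusted p = 0.131). Without DMSO replicate 3 it passed, with a log2 fold change of 0.55 and an edgeR adjusted p of 0.0300.

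The other members did not pass the test. FASTKD1 (ENSG00000138399, chr2:169528508-169573875, minus strand), whose loss is known to raise the MT-ND3 mRNA, was measured at 21.0, 18.0 and 27.5 CPM after DMSO and 19.5, 20.7 and 16.6 CPM after FT671. DMSO replicate 3 was the highest library and FT671 replicate 3 the lowest. The log2 fold change was -0.22 with a standard error of 0.155 (95% interval -0.55 to 0.12, edgeR adjusted p = 0.267).

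FASTK itself (ENSG00000164896, chr7:151076624-151080866, minus strand), a short isoform of which enters mitochondria and maintains the MT-ND6 mRNA, was measured at 23.7, 23.3 and 20.8 CPM after DMSO. After FT671 it was 26.3, 16.9 and 20.04 CPM, so that the treated libraries included both the highest and the lowest value. The log2 fold change was -0.13 with a standard error of 0.142 (95% interval -0.44 to 0.17, edgeR adjusted p = 0.465). Counts per gene do not separate the mitochondrial isoform from the others.

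FASTKD5 (ENSG00000215251, chr20:3146519-3159865, minus strand) was measured at 16.8, 14.8 and 18.8 CPM after DMSO and 14.6, 16.2 and 17.2 CPM after FT671, with overlapping groups. Its log2 fold change was the closest to 0 in the family, at -0.04 with a standard error of 0.133 (edgeR adjusted p = 0.836). The 95% interval ran from -0.32 to 0.25. The sign of this value turned under some of the alternatives.

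**Figure D1:**
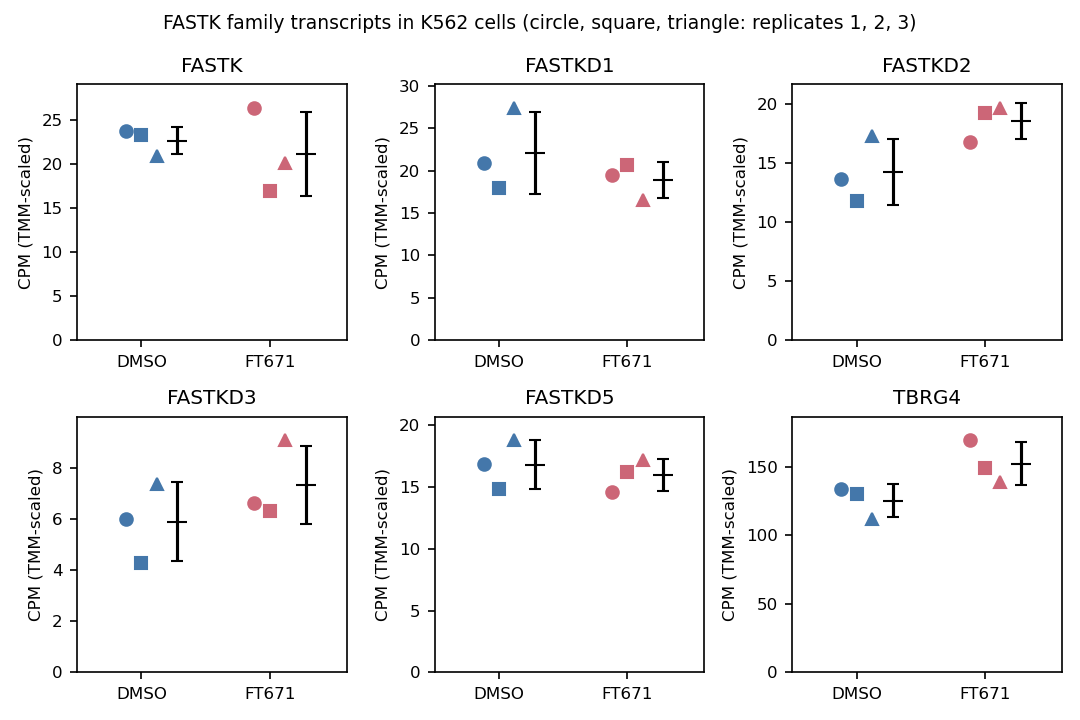
Levels of the 6 FASTK family transcripts, in CPM with TMM-scaled library sizes, in each of the 3 DMSO and 3 FT671 libraries (colored symbols, one shape per replicate number), with the mean ± SD of each group in black. TBRG4 is the member whose FT671 libraries, at 138.5 to 169.4 CPM, all lie above the DMSO libraries, at 111.8 to 134.0 CPM, and in the other panels the groups overlap.

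**Figure D2:**
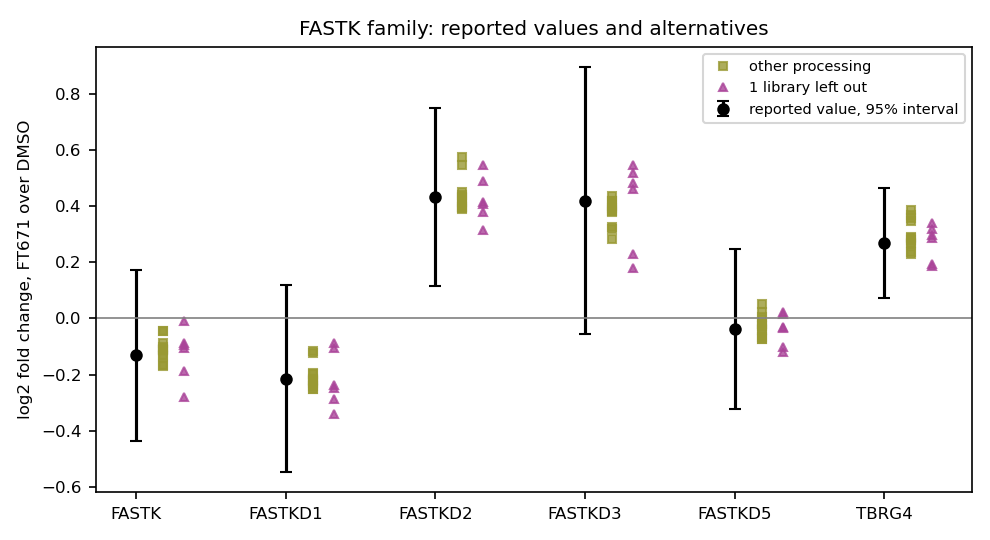
Log2 fold changes of the 6 family genes, FT671 over DMSO (vertical axis), as reported with the 95% interval (black), under other processing (squares) and with 1 library left out (triangles). The points of TBRG4, FASTKD2 and FASTKD3 all lie above 0, but the interval of FASTKD3, the widest, runs from -0.06 to 0.90, and the points of FASTKD5 lie on both sides of 0.

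The family genes also differed among the DMSO libraries. FASTKD1, FASTKD2, FASTKD3 and FASTKD5 were highest in DMSO replicate 3, and TBRG4 and FASTK were lowest there. The exons of the first 4 had a GC content of 38.8%, 39.0%, 38.3% and 43.97%, and those of TBRG4 and FASTK 55.1% and 62.7%. With a correction for exon GC content the log2 fold change of TBRG4 was 0.35 and that of FASTKD2 0.41, with edgeR adjusted p-values of 0.000261 and 0.00653. FASTK, the member with the highest GC content, moved from -0.13 to -0.045. FASTKD1 was at -0.24, FASTKD3 at 0.38 and FASTKD5 at 0.0051, and none of these 4 passed the test.

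To compare levels between members, CPM were divided by the length of the merged exons in kilobases (FPKM). In DMSO-treated cells TBRG4 stood first at 21.6 ± 2.03 FPKM (SD, n = 3). FASTK followed at 5.99 ± 0.41, FASTKD1 at 3.89 ± 0.85, FASTKD5 at 3.07 ± 0.365, FASTKD3 at 2.06 ± 0.54 and FASTKD2 at 1.46 ± 0.289 FPKM. The ranges over the libraries overlapped for FASTKD1 and FASTKD5 and for FASTKD3 and FASTKD2. Compared within each library, FASTKD1 was above FASTKD5 in 3 of 3 DMSO and 2 of 3 FT671 libraries, and FASTKD3 was above FASTKD2 in all 6. The order was the same after FT671, where TBRG4 reached 26.2 ± 2.7 and FASTKD2 1.904 ± 0.158 FPKM. With the length of the MANE Select transcript in place of the merged exons, FASTKD5 stood above FASTKD1 in DMSO-treated cells, at 5.91 ± 0.704 against 5.27 ± 1.15 FPKM and in all 6 libraries, and FASTKD3 was above FASTKD2 in 3 of 3 DMSO and 2 of 3 FT671 libraries.

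Ratios within a library do not depend on the scaling of libraries. Relative to the mean log2 level of the 6 family genes in the same library, FASTKD1 was lower after FT671 by a difference of -0.31 and FASTKD5 by -0.17, and in both the groups did not overlap. The exact permutation test gave p = 0.1 for each, two-sided, the smallest that 3 against 3 libraries allow. The other 4 members had overlapping groups, with differences between -0.22 for FASTK and 0.30 for FASTKD2. As the members enter their own reference, these values describe the make-up of the family only.

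Shared exons and neighbors bear on some counts, since the strand setting of the counting was not given in the sources used here. FASTKD5 lies within the span of UBOX5 on the same strand and shares 100 exon bases with it, and 330 bases with UBOX5-AS1 on the other strand. Together these were 7.85% of its exon bases. UBOX5 had a log2 fold change of -0.20 (edgeR adjusted p = 0.233) and UBOX5-AS1 of 0.26 (edgeR adjusted p = 0.596). FASTKD3 shares 100 bases, 3.5% of its exon length, with MTRR on the other strand, for which the log2 fold change was 0.22 (edgeR adjusted p = 0.133). TBRG4 hosts 3 small nucleolar RNAs. SNORA5A was higher after FT671, with a log2 fold change of 0.73 and an edgeR adjusted p of 0.0453 on 11 to 34 counts per library, a call that was lost under 10 of 17 alternatives. SNORA5C did not pass the test (0.14, edgeR adjusted p = 0.665). SNORA5B had 0 counts, but it shares 132 bases with the exons of TBRG4 on the same strand, 2.275% of their length. Its 0 counts therefore do not show that it was absent. FASTKD2 starts, by GENCODE 44, 29 bases from MDH1B, transcribed the other way, which had 1 count in all 6 libraries together. FASTK and FASTKD1 share exon bases with no listed gene.

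The promoters of the members that passed the test are shown from RefSeq (GRCh38.p14, 300 bases around the RefSeq start, mostly before it, in the direction of the gene). The set of RefSeq promoters used here held 5 of the 6 genes and had no entry for FASTKD5. RefSeq places the start of TBRG4 350 bases and that of FASTKD2 249 bases inside the gene as GENCODE 44 draws it. By the positions given above, both windows therefore lie almost wholly within the gene. Capitals mark CCGGAAG, the core bound by ETS factors, read on both strands. Such sites are common in promoters of nuclear genes for mitochondrial proteins.
TBRG4, chr7:45111648-45111947, minus strand: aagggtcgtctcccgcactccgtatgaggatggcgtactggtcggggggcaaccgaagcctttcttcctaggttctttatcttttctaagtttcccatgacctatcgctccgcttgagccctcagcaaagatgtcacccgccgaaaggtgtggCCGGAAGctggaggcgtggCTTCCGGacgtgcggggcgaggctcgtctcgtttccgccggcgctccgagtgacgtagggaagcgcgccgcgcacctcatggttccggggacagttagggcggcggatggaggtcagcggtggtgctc
FASTKD2, chr2:206765356-206765655, plus strand: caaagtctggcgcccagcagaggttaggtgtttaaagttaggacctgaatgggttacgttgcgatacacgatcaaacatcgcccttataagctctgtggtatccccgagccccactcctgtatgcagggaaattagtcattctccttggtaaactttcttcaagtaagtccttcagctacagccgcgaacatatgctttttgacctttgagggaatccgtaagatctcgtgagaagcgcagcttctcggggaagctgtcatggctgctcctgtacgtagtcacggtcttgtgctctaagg
The TBRG4 promoter held 2 matches, facing in opposite directions, and the windows of FASTK, FASTKD1, FASTKD2 and FASTKD3 held 0. Among 35116 promoters of this length 10.3% held the core. The box CCAAT, found in 34.6% of promoters, occurred in the windows of FASTK and FASTKD3. These matches describe letters in a window, and the lack of a match says nothing of the factor.

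For each member, the genes with the most similar profile over the 6 libraries were sought among 10755 genes of at least 5 CPM, by the root mean square difference of log2 CPM centered on each gene's own mean. For FASTKD5 they were UBP1 (0.0195) and RBL2 (0.0216), and for FASTKD2 CEP170 (0.0292) and HERC4 (0.0339). For FASTK they were GTPBP3 (0.0430) and EHD4 (0.0434). Whether any of these genes shares a role with its member was not tested. For TBRG4 the nearest gene was SMPD4 (0.0252), for FASTKD1 C6orf62 (0.0636), followed by DPP8 (0.0657), and for FASTKD3 ZNF211 (0.0698). Within the family the closest pair was FASTKD2 and FASTKD3, with a difference of 0.163, and the farthest was FASTK and FASTKD3, with 0.421.

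The mitochondrial mRNAs, on which these proteins act, changed unequally, and most of them by more than the family genes. Of the 13 mitochondrial mRNAs 12 were lower after FT671 and 1, MT-CO1, was higher (edgeR, adjusted p under 0.05, beside 26.5% lower and 23.6% higher of all genes). At 1e-05, 6 of 13 were lower, beside 4.13%, and 0 were higher, beside 1.79%. At that threshold DESeq2's Wald test called 10 lower and 1, MT-CO1, higher. In all 12 lower mRNAs every FT671 library lay below every DMSO library, beside 30.3% of all genes. The median log2 fold change was -0.75. The sum of the 13 mRNAs was 26803 ± 1278 CPM after DMSO and 15895 ± 1686 CPM after FT671 (SD, n = 3), or 59.3% of the control.

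The cytochrome b mRNA MT-CYB was measured at 2361, 2040 and 1910 CPM after DMSO and 238.4, 214.5 and 251.7 CPM after FT671. This was the deepest fall, with a log2 fold change of -3.16 (95% interval -3.37 to -2.96, edgeR adjusted p = 1.52e-10). MT-CO3, a subunit of cytochrome c oxidase, fell from 6426, 7101 and 5302 CPM to 1050, 927.5 and 1035 CPM, a log2 fold change of -2.64 (edgeR adjusted p = 1.23e-09). Another subunit of the same enzyme, MT-CO1, rose from 3368, 3446 and 3453 CPM to 4637, 4821 and 5623 CPM, a log2 fold change of 0.56 (edgeR adjusted p = 5.84e-05). The groups did not overlap in any of these mRNAs.

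Among the complex I mRNAs, MT-ND2 and MT-ND3 fell most, with log2 fold changes of -1.81 and -1.60 (edgeR adjusted p = 1.18e-08 and 1.42e-07). MT-ND5 followed at -0.89, and MT-ND1, MT-ND4L, MT-ND6 and MT-ND4 fell by 0.64, 0.63, 0.58 and 0.50 on the log2 scale. The ATP synthase mRNAs MT-ATP6 and MT-ATP8, which share a transcript, had values of -0.77 and -0.75, and MT-CO2 of -0.50. MT-ATP8 and MT-ATP6 overlap (a gap of -46 bases), and how reads from the shared bases were counted is not given. MT-ND6 lies on the minus strand. As the strand setting is not given either, its counts may include reads from the other strand.

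**Figure D3:**
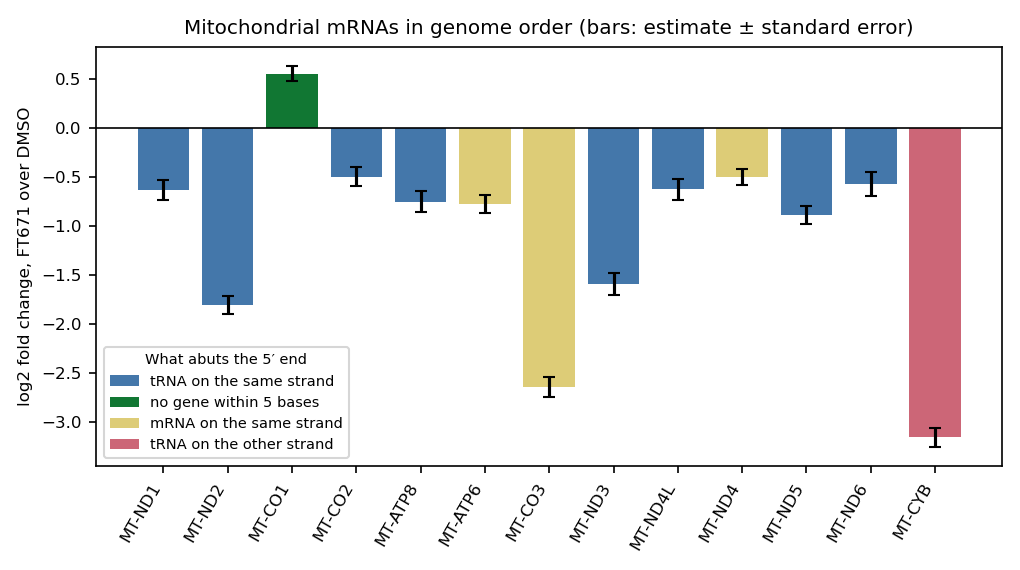
Log2 fold change of the 13 mitochondrial mRNAs, FT671 over DMSO (bars, with the standard error), in the order of the genes along the mitochondrial genome and colored by what abuts the 5′ end. The 8 mRNAs that follow a tRNA of the same strand lie between -1.81 and -0.50, and the other 5 span from -3.16 (MT-CYB) to 0.56 (MT-CO1).

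Grouped by the 5′ end, 8 mRNAs have a tRNA of the same strand within 5 bases and 5 do not. The 8 were all lower, with log2 fold changes from -1.81 to -0.50 and a median of -0.69. The 5 others were MT-CO1, MT-CO3, MT-CYB, MT-ATP6 and MT-ND4, of which 4 were lower and 1 higher, with a range from -3.16 to 0.56 and a median of -0.77. MT-CO1, MT-CO3 and MT-CYB held the extremes on both sides. MT-ND4 and MT-ATP6 are parts of bicistronic mRNAs, with values of -0.50 and -0.77 beside -0.63 and -0.75 for their partners MT-ND4L and MT-ATP8. No test was made between these groups of genes, and counts per gene do not show whether the reads came from cut mRNAs or from uncut precursors.

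The same picture held within libraries. MT-CO1 made up 12.2%, 12.6% and 13.6% of the mitochondrial mRNA counts after DMSO and 31.3%, 32.0% and 31.5% after FT671. MT-CO3 went from 23.3%, 25.9% and 20.9% to 7.09%, 6.16% and 5.80%, and MT-CYB from 8.55%, 7.43% and 7.54% to 1.61%, 1.43% and 1.41%. Relative to the mean log2 level of all 13 mRNAs in the same library, MT-CO1 was higher by 1.63, and MT-CYB, MT-CO3, MT-ND2 and MT-ND3 were lower, with differences of -2.08, -1.56, -0.75 and -0.51. The other 8 mRNAs lay between 0.18 and 0.58, although each of them was lower after FT671 in CPM. The groups did not overlap in 12 of 13 mRNAs, MT-ATP8 being the exception. For those 12 the exact permutation p was 0.1, the smallest possible. As the mRNAs enter their own reference, these values describe the make-up of the 13 only, and the 12 are not independent shifts.

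**Figure D4:**
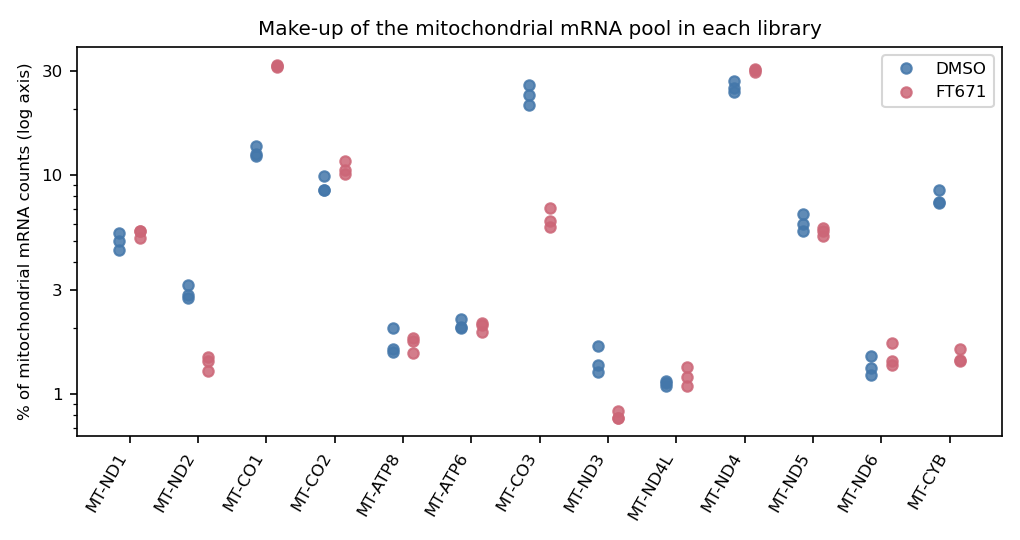
Share of each mitochondrial mRNA in the counts of all 13 (percent, log axis) in the 3 DMSO and 3 FT671 libraries, 1 point per library. MT-CO1 stands at 12.2% to 13.6% after DMSO and 31.3% to 32.0% after FT671, and MT-CO3 and MT-CYB move the opposite way.

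Nuclear copies of mitochondrial genes can take reads from them. MTCYBP18, MTCO3P12 and MTND2P28 had log2 fold changes of -3.12, -2.33 and -1.90 and MTCO1P12 of 0.59, each in the direction of the mitochondrial gene. MTATP8P2, on 3 to 16 counts per library, had a value of 1.55 (edgeR adjusted p = 0.0089), against -0.75 for MT-ATP8. Counts of a mitochondrial mRNA and of its copies are uncertain to the extent that reads were split. The rRNAs MT-RNR1 and MT-RNR2, the latter bound by FASTKD2, were targets of the rRNA depletion and kept between 2.66 and 8.08 CPM. Their log2 fold changes of 0.10 and 0.13 (edgeR adjusted p = 0.806 and 0.716) say nothing about the rRNAs before depletion.

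The changes of the family genes were smaller than those of most mitochondrial mRNAs. As fitted here, the value farthest from 0 in the family was 0.43 for FASTKD2, and each of the 13 mRNAs lay farther from 0, the nearest being MT-CO2 and MT-ND4 at -0.50. This order did not hold in 6 of 17 alternatives, where 1 to 3 of MT-CO1, MT-CO2, MT-ND4 and MT-ND6 lay no farther from 0 than the farthest family gene. The 95% intervals of all 6 family genes lay within -0.55 to 0.90. Whether the level of any FASTK protein changed was not measured.

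Of 48 other nuclear genes for the transcription, cutting, stability, decay and translation of mitochondrial RNA, 47 were tested. By edgeR at an adjusted p under 0.05, 21 (44.7%) were higher, beside 23.6% of all genes tested, and 6 (12.8%) were lower, beside 26.5%. The other 20 had no call, and the median log2 fold change was 0.28. The count of lower genes was 3 without DMSO replicate 1, DMSO replicate 2 or FT671 replicate 2, 2 without FT671 replicate 3, and 3 by DESeq2's Wald test. In the group for cleavage, 5 of 6 were higher and 0 lower, by both tools. The RNase P subunits TRMT10C and HSD17B10 had log2 fold changes of 0.46 and 0.42, the 3′ endonuclease ELAC2 of 0.59 and PTCD2, a pentatricopeptide repeat protein, of 0.85, and the nuclease subunit PRORP did not pass the test at 0.04 (edgeR adjusted p = 0.864).

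Transcription held 1 higher and 2 lower of 9 genes (2 and 2 by DESeq2's Wald test). POLRMT, the mitochondrial RNA polymerase, fell from 66.9, 63.2 and 64.7 CPM to 32.1, 25.4 and 25.3 CPM, a log2 fold change of -1.25 (edgeR adjusted p = 6.54e-07). TFB2M, which helps the polymerase to open the promoter, fell by 0.63 on the log2 scale (edgeR adjusted p = 0.0180), a call that was lost without FT671 replicate 3 (edgeR adjusted p = 0.0819). Of 12 genes for stability and polyadenylation, 3 were higher and 4 lower, against 3 higher and 1 lower by DESeq2's Wald test. SLIRP rose from 50.7, 58.5 and 58.4 CPM to 94.97, 111.7 and 131.9 CPM (log2 fold change 1.03, edgeR adjusted p = 5.46e-06), and its partner LRPPRC had a value of 0.19 that did not pass the test (edgeR adjusted p = 0.101). LRPPRC passed under 6 of 17 alternatives, among them the replicate block (edgeR adjusted p = 0.0454), both corrections for exon length and GC content, and the fit without DMSO replicate 3 (edgeR adjusted p = 0.000176). The poly(A) polymerase MTPAP at 0.28 (edgeR adjusted p = 0.0659) and the RNA granule protein GRSF1 at -0.19 (edgeR adjusted p = 0.0970) did not pass the test. MTPAP passed under 7 of 17 alternatives, among them the fits without DMSO replicate 3 and without FT671 replicate 1 (edgeR adjusted p = 0.0102 and 0.0224), and GRSF1 under 1, without DMSO replicate 3 (edgeR adjusted p = 0.0380). The methyltransferase TRMT61B fell by 1.06 (edgeR adjusted p = 0.00165).

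Among 6 decay genes 3 were higher and 0 lower by both tools, with PNPT1 and SUPV3L1, the exonuclease and helicase of the mitochondrial degradosome, at 0.75 and 0.57. Of 14 tested genes for rRNA modification and translation 9 were higher and 0 lower (1 lower at an unadjusted p under 0.05, and 8 higher and 0 lower by DESeq2's Wald test), led by the elongation factor GFM1 at 0.73 (edgeR adjusted p = 3.81e-06). Each of these groups is read against 23.6% of all genes higher and 26.5% lower, and no test compared a group with the FASTK family.

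**Figure D5:**
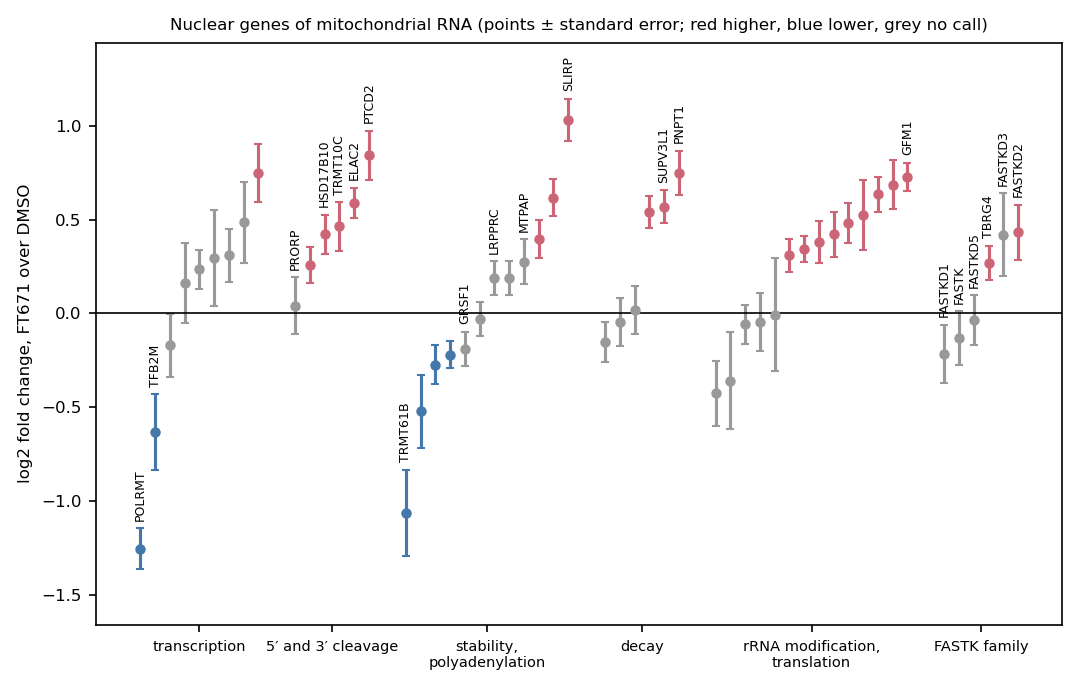
Log2 fold change, FT671 over DMSO, with the standard error, of 47 nuclear genes for mitochondrial RNA by role and of the 6 FASTK family genes at the right, each gene a point (red higher, blue lower, grey no call by edgeR at an adjusted p under 0.05). POLRMT at -1.25 and SLIRP at 1.03 mark the ends of the range, and the family lies between -0.22 and 0.43.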

How the data were processed

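RNA-seq libraries of K562 cells treated with DMSO (n = 3) or 10 μM FT671 for 48 h (n = 3) were analysed. The authors deposited whole-number read counts per gene without normalization. According to the submitters' processing notes, reads were aligned to hg38 with STAR and DESeq2 was used by the authors. Versions, the annotation and the strand setting are not given in the sources used here. Identifiers were matched to GENCODE 44 (60295 of 60609), and the 314 unmatched genes held 0.0609% of the counts. The 6 ChIP samples of the series are not analysed here.

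Genes were filtered with filterByExpr of edgeR 4.0.16 (R 4.3.3), scaled by TMM and tested with the quasi-likelihood test over all 13895 genes, with Benjamini-Hochberg adjustment. CPM and FPKM use TMM-scaled library sizes, and intervals are at 95%. Ratios within a library were taken on log2 counts and tested by exact permutation (scipy 1.17.1). Nearest profiles and correlations between libraries used log2 CPM (prior count 2). Replicates differed beyond counting error (chi-square per degree of freedom 2.07 to 8.73), so none was a copy of another. The highest values, 7.55 and 8.73, were those of DMSO replicate 3 against DMSO replicates 1 and 2. All other pairs lay between 2.07 and 3.2.

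The genes named are the family, the mitochondrial mRNAs and rRNAs, overlapping genes and divergent starts within 1000 bases, the 2 nearest profiles of each member (those without a symbol are not named), and preset or most changed genes of a list of mitochondrial RNA factors. Nuclear copies of mitochondrial genes were named after their values were seen. The family and the lists were chosen with earlier results of these data known. Alternatives were DESeq2 1.42.0 size factors and its Wald test, scaling by library totals or nuclear genes, no filter, at least 10 counts in every library, a replicate block, loess corrections (span 0.3) for exon length and GC content with and without the block, and leaving out each library.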

Additional observations from a re-analysis of the deposited data

How the results depend on the processing

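Over 17 alternatives, each mitochondrial mRNA kept its direction and its call. FASTK and FASTKD1 kept their direction without a call, and FASTKD2 and TBRG4 were higher throughout and called in 13 and 14 of 17. The FASTKD5 value turned with the corrections for exon length (0.053), exon GC content (0.0051) and length with the replicate block (0.023). Without a filter on low counts, TBRG4 was at 0.23 (edgeR adjusted p = 0.0529), leaving 1 family gene called higher, and the median of the mitochondrial RNA factors was 0.23. The number of these factors called lower was 3 with the GC correction and 3 with DESeq2's Wald test, against 6.

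With 1 library left out, log2 fold changes ranged from -0.28 to -0.0089 for FASTK, -0.34 to -0.088 for FASTKD1, 0.32 to 0.55 for FASTKD2, 0.18 to 0.55 for FASTKD3, -0.12 to 0.024 for FASTKD5, 0.19 to 0.34 for TBRG4, -0.11 to 0.60 for MT-RNR1, -0.048 to 0.43 for MT-RNR2, -0.020 to 0.086 for PRORP, -0.0095 to 0.25 for UBOX5-AS1 and -0.049 to 0.43 for SNORA5C. Between 0 and 3 family genes were called higher, 2 to 8 factors lower, with a median of the factors from 0.21 to 0.30, and 2 to 4 family genes had groups that did not overlap relative to the family mean. No family gene was called without FT671 replicate 2. These fits rest on fewer libraries.

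Replicate numbers are shared by both groups. The deviations of same-numbered libraries correlated at 0.115, -0.0605 and 0.14, and those of differently numbered libraries at -0.168 to 0.125. With so few libraries per group, these values cannot show whether same-numbered libraries were paired. With the replicate block TBRG4 was at 0.28 (edgeR adjusted p = 0.00368) and FASTKD2 at 0.39 (edgeR adjusted p = 0.0310), 3374 genes were called higher and 3761 lower against 3277 and 3687, and of the named genes LRPPRC gained its call and SNORA5A lost it, with no such change in a family gene or mitochondrial mRNA. Depth limits FASTKD3, with 30 to 102 counts per library, most.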
